A study of Homo sapiens with 6 samples.

Results

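Fibroblast growth factors (FGFs) are secreted ligands that bind receptor tyrosine kinases and activate the RAS, RAF, MEK and ERK kinase cascade. ERK switches on genes that damp the same cascade, among them the DUSP phosphatases and the Sprouty (SPRY) inhibitors, and it also induces the ETS transcription factors ETV4 and ETV5, so these genes are widely used as a readout of FGF signalling. In the mouse gastrula, FGF4, FGF8 and FGF17 are produced in the primitive streak, and Wnt/β-catenin and FGF signalling act together there. The 9 genes described here are 3 ligand genes (FGF8, FGF17 and FGF4) and 6 targets of ERK (DUSP6, DUSP4, ETV4, ETV5, SPRY4 and SPRY2). Every β-catenin peak that the authors assigned to one of them was taken, at any distance to its transcription start site (TSS). This gave 19 of the 3126 peaks in 3 lists.

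The peaks came from chromatin immunoprecipitation and sequencing (ChIP-seq) of β-catenin in SA121, a human embryonic stem cell line, after 6 h in new medium. The groups were RPMI medium with CHIR99021 and SB431542 (CHIR+SB), RPMI with CHIR99021 alone (CHIR), and RPMI with no inhibitor (RPMI, the mock treatment). CHIR99021 inhibits GSK3 and so stabilises β-catenin, and SB431542 blocks the type I receptors of activin, Nodal and TGFβ. Neither compound is an inhibitor of FGF receptors. Each medium had 1 β-catenin library and 1 goat IgG library, and DNA of parallel ChIPs was pooled before sequencing. No spread between replicates can be given, and the intervals below are exact 95% intervals for counting error alone.

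The lists differ in depth and in their lowest peaks. The β-catenin libraries of CHIR+SB and CHIR were 1.14 and 1.67 times as deep as that of RPMI by the authors' scaling factors, and the IgG libraries 1.75 and 0.976 times as deep. The smallest peak held 12 reads in the CHIR+SB list, 20 in the CHIR list and 15 in the RPMI list. In normalized signal, the read count multiplied by the authors' factor for the library, these minimums were 6.75, 7.68 and 9.61. A gene without a peak may therefore hold signal below these levels.

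Peaks were assigned to 8 of the 9 genes in CHIR+SB, to 7 in CHIR and to none in RPMI. Only FGF4 lacked a peak in all 3 lists, and DUSP4 had one in CHIR+SB and none in CHIR. For comparison, 6.25% of protein-coding genes had a peak in the CHIR+SB list, 3.8% in the CHIR list and 1.14% in the RPMI list. These 9 genes were chosen with earlier results of the same lists known, so their higher share describes the choice as well as the cells. With peaks limited to 50 kb from the TSS, the counts were 7 genes in CHIR+SB, 6 in CHIR and 0 in RPMI, against 3.73%, 2.69% and 0.888% of protein-coding genes. All 7 genes with a CHIR peak also had a CHIR+SB peak, as did 69.7% of all protein-coding genes with a CHIR peak. In the other direction, 7 of the 8 genes with a CHIR+SB peak had a CHIR peak, as did 42.3% of all protein-coding genes with a CHIR+SB peak. Most genes with a peak in either list had none in RPMI, namely 87.7% of those in CHIR+SB and 77.4% of those in CHIR. DUSP6 and SPRY2 had 2 peaks each in both lists, so the lists held 10 CHIR+SB and 9 CHIR peaks for these genes. Of all protein-coding genes with a peak, 14.6% in CHIR+SB and 9.97% in CHIR had more than 1.

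No RPMI peak came near any of the 19 peaks. The closest was assigned to COASY on chromosome 17, 894 kb from the ETV4 peak of the CHIR list. Distances of RPMI peaks from the genes themselves were not measured. Of the 9 CHIR peaks, 6 had a signal above 9.61, the lowest signal in the RPMI list, and 3 lay under it. The 3 were the DUSP6 peak within the gene at 9.22, the more distant SPRY2 peak at 8.83 and the ETV4 peak at 9.60. Of the 10 CHIR+SB peaks, 5 were above 9.61 and 5 under it. The median signal of all CHIR+SB peaks, 9.56, was under it as well. In the CHIR list, 25.4% of all peaks had fewer reads than the ETV4 peak at 9.60, so at least that share lay under 9.61. At the lower peaks, the same signal in RPMI would not have reached the level of any peak in that list. No ratio of CHIR to RPMI can be given, because the lists hold no RPMI value for these sites.

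**Figure D1:**
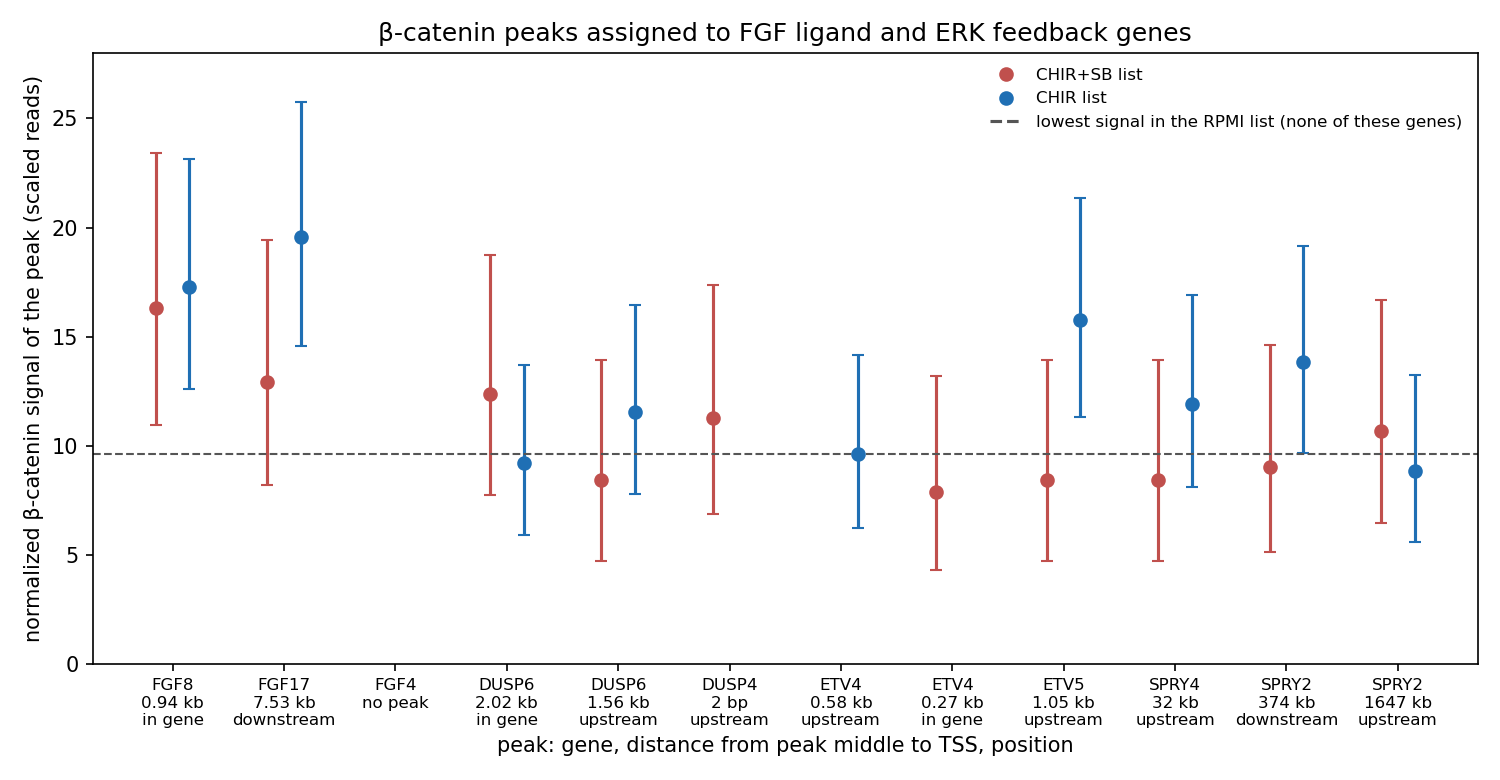
Normalized β-catenin signal (y axis, scaled reads) of each peak assigned to the 9 genes, along the x axis by gene and by distance to the TSS, with CHIR+SB points left of CHIR points and exact 95% counting intervals as bars. FGF17 at 19.6 is the highest CHIR point and FGF8 at 16.3 the highest CHIR+SB point, and the dashed line at 9.61 is the lowest signal in the RPMI list, which has no peak for these genes.

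The ligand genes FGF8 and FGF17 carried the highest signals of the set in both media, by small margins over the next gene. In CHIR+SB, FGF17 had 23 reads and the DUSP6 peak within the gene 22. In CHIR, FGF8 had 45 reads and ETV5 had 41. The counting intervals overlapped in both cases. FGF8, a ligand needed in the mouse for cells to move away from the streak, had 29 reads in CHIR+SB and 45 in CHIR, with 8 IgG reads in each. The normalized signals were 16.3 (10.9 to 23.4) in CHIR+SB and 17.3 (12.6 to 23.1) in CHIR, which are nearly equal. The CHIR+SB peak spanned positions 103538682 to 103539185 of chromosome 10 and the CHIR peak 103538973 to 103539391, in the coordinates of the lists, whose gene positions are those of build hg19. Both lay inside the transcribed span near its start, with the CHIR+SB peak centred 1.19 kb from the TSS and the CHIR peak 0.944 kb from it. The centres were 249 bp apart, the widest shift among the shared sites.

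FGF17, a close relative of FGF8, had 23 reads in CHIR+SB and 51 in CHIR, with 9 and 7 IgG reads. Its normalized signal was 12.9 (8.20 to 19.4) in CHIR+SB and 19.6 (14.6 to 25.7) in CHIR. The CHIR value is the higher, and the intervals overlap. The peaks lay beyond the 3′ end of the gene on chromosome 8, at 21907741 to 21908191 in CHIR+SB and at 21907644 to 21908274 in CHIR. They were 7.54 and 7.53 kb from the TSS and 1.65 and 1.64 kb past the end of the FGF17 transcript in CHIR+SB and CHIR. The next coding gene in RefSeq order is DMTN, and where the peaks lie relative to DMTN was not measured. In the CHIR list FGF17 ranked 170 and FGF8 238 by reads among 1053 peaks, and in the CHIR+SB list they ranked 470 and 279 among 1813.

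FGF4, the ligand that pluripotent cells themselves secrete in the mouse, had no peak in any list. On chromosome 11 it sits between FGF19 and FGF3 in RefSeq gene order. FGF19, a ligand known as a hormone of bile acid control, had a CHIR+SB peak of 25 reads and 12 IgG reads within the gene, 1.60 kb from the TSS (69517308 to 69517700). FGF3 had a CHIR peak of 24 reads and 0 IgG reads 23.9 kb upstream (69657943 to 69658198). Neither of these peaks was shared by the other list, and they lay 141 kb apart.

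Among the MAP kinase phosphatases, DUSP6, which dephosphorylates ERK in the cytoplasm, had a pair of peaks on chromosome 12 that flanked its TSS in both lists. The peak within the gene had 22 reads and 9 IgG reads in CHIR+SB (89744086 to 89744474) and 24 reads and 1 IgG read in CHIR (89744166 to 89744378). The upstream peak had 15 reads and 7 IgG reads in CHIR+SB (89747909 to 89748044) and 30 reads and 2 IgG reads in CHIR (89747685 to 89748026). In CHIR+SB the inner peak had the higher signal of the pair, 12.4 against 8.44, and in CHIR the upstream peak had, 11.5 against 9.22. The counting intervals of each pair overlap. No interval was computed for the ratio between the peaks of a pair, so this order is not established. The inner peaks were centred 2.02 kb from the TSS in both lists, and the upstream peaks 1.68 kb from it in CHIR+SB and 1.56 kb in CHIR.

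The stretch between these peaks includes the DUSP6 promoter. It is shown because DUSP6, of the genes with a window in the promoter table, had peaks within 50 kb on both sides of its start. The 250 bases upstream of the DUSP6 start in RefSeq, on the minus strand of chr12:89352502-89352751 in build GRCh38.p14, read as follows, with matches to the ETS core CGGAA or its reverse complement TTCCG in capitals.
DUSP6: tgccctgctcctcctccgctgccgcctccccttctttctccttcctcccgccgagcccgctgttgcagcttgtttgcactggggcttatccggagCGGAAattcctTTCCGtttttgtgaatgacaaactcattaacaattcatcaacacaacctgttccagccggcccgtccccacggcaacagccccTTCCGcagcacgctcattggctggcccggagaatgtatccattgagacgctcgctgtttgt
The window holds 3 matches to the ETS core, and 30.3% of all upstream windows of this length in the table hold at least 1. The promoter table held windows for 3 of the 9 genes, DUSP6, SPRY2 and SPRY4, with 5 windows of 250 bases before to 50 after a start. Of these 5 windows, 2 held the ETS core (at DUSP6 and SPRY2, none at SPRY4), against 34.9% of 35116 windows in the table. None of the 5 held the TCF/LEF core ATCAAAG on either strand, which 2.62% of all windows held. None held the octamer ATGCAAAT, bound by OCT4, which 1.77% of windows held. The peaks of these 3 genes lay outside the windows, and the sequence under the peaks was not analysed here.

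DUSP4, a nuclear phosphatase of ERK, had a peak over its TSS in the CHIR+SB list, on chromosome 8 from 29206163 to 29206485, with 20 reads and 9 IgG reads. Its centre was 2 bp from the TSS and its normalized signal 11.3 (6.87 to 17.4). The CHIR list had no peak for DUSP4. A signal of 11.3 would be above the CHIR minimum of 7.68, and the lower end of the interval, 6.87, would not. No value for DUSP4 in CHIR can be read from the lists, so a difference between the media was not tested at this gene.

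**Figure D2:**
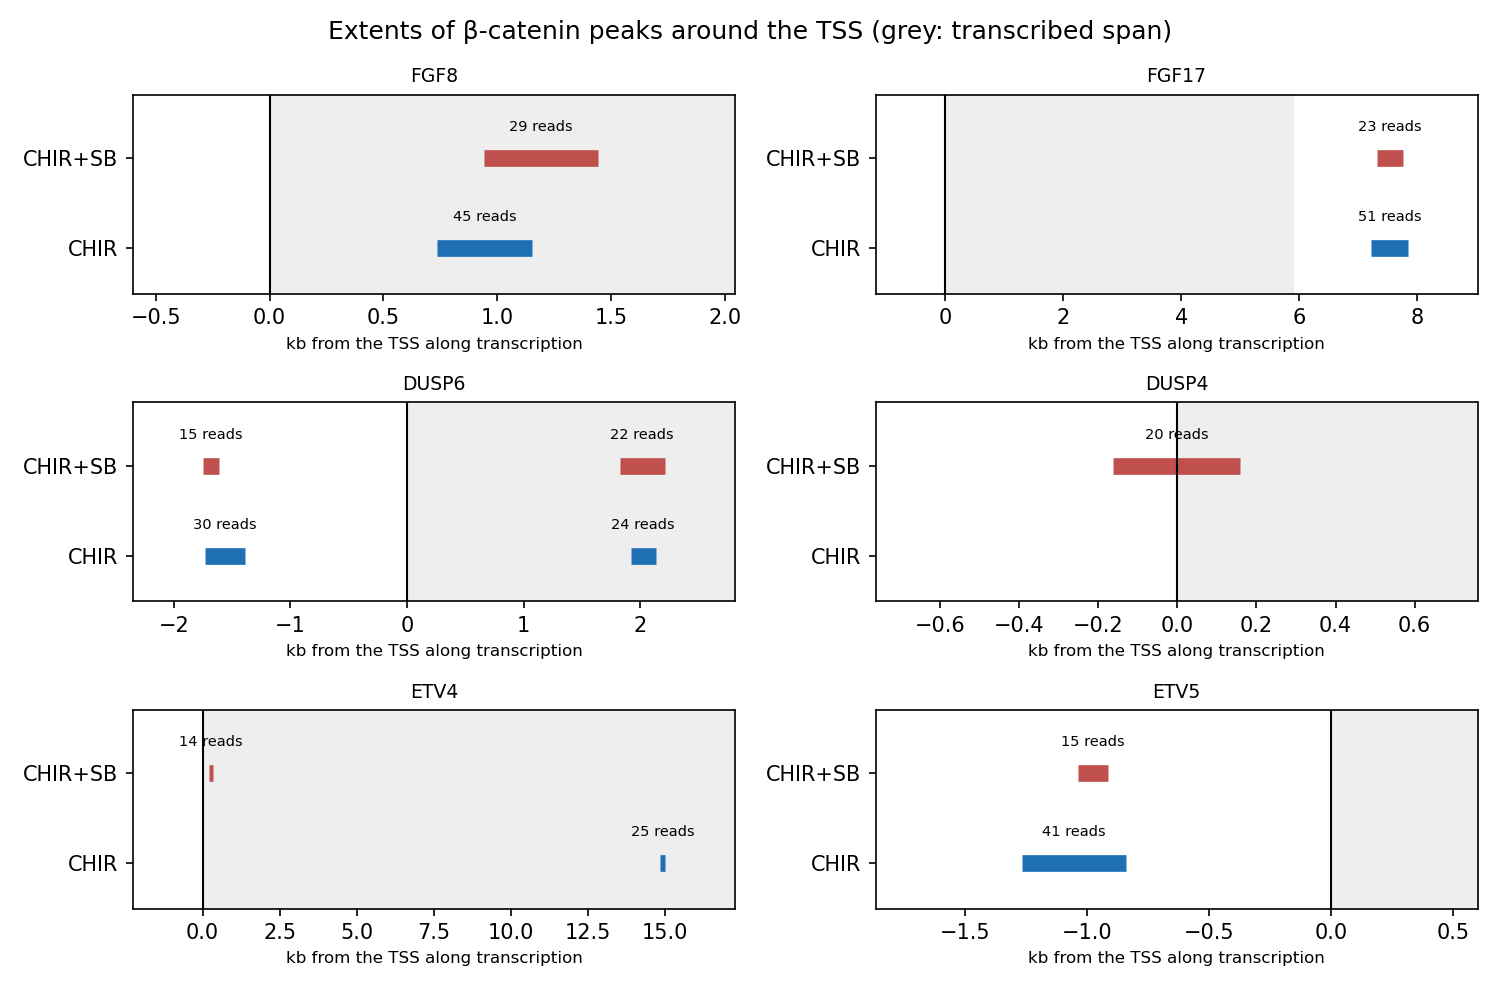
Extents of the peaks of 6 genes, in kb from the TSS along the direction of transcription (x axis), with CHIR+SB bars above CHIR bars, read counts printed at each bar and the transcribed span in grey. The DUSP6 peaks flank the TSS in both lists, the ETV5 bar is shorter in CHIR+SB (15 reads) than in CHIR (41 reads), and the ETV4 bars are at separate places.

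The ETS factors ETV4 and ETV5 are transcription factors of the PEA3 family. ETV5 had a peak just upstream of its TSS on chromosome 3 in both lists. In CHIR+SB it had 15 reads and 7 IgG reads over 124 bp (185827815 to 185827939), and in CHIR 41 reads and 5 IgG reads over 424 bp (185827743 to 185828167). The normalized signal was 8.44 (4.72 to 13.9) in CHIR+SB and 15.7 (11.3 to 21.4) in CHIR. The CHIR+SB peak lay wholly inside the CHIR peak. Relative to the TSS the centres were 0.976 kb upstream in CHIR+SB and 1.05 kb upstream in CHIR.

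ETV4 had 1 peak in each list on chromosome 17, at separate sites. The CHIR+SB peak had 14 reads and 6 IgG reads (41622975 to 41623099) and was 268 bp inside the start of a long transcript. The CHIR peak had 25 reads and 3 IgG reads (41608296 to 41608466) and was 578 bp upstream of the start of a shorter transcript. The sites were 14.7 kb apart, and the CHIR site is inside the long transcript. The lists therefore do not show the same ETV4 site in both media, although the gene counts as having a peak in each. Both peaks were near the bottom of the set, with signals of 7.88 (4.31 to 13.2) in CHIR+SB and 9.60 (6.21 to 14.2) in CHIR. Many CHIR+SB peaks tied with ETV4 at 14 reads: 0.331% of that list had fewer than 14 reads and 24.2% fewer than 15.

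The Sprouty genes encode inhibitors of receptor tyrosine kinase signalling, and their peaks were the most distant of the set. SPRY4 had 15 reads and 8 IgG reads in CHIR+SB (chromosome 5, 141736603 to 141736726) and 31 reads and 2 IgG reads in CHIR (141736447 to 141736826), 32.04 kb upstream of the TSS in CHIR+SB and 32.02 kb in CHIR. SPRY2 had a peak 374 kb downstream of its TSS on chromosome 13, with 16 reads and 7 IgG reads in CHIR+SB (80540682 to 80540900) and 36 reads and 4 IgG reads in CHIR (80540566 to 80541025). A further SPRY2 peak lay 1647 kb upstream, with 19 reads and 8 IgG reads in CHIR+SB (82561916 to 82562298) and 23 reads and 3 IgG reads in CHIR (82562045 to 82562279). At these distances the link to SPRY2 is the authors' assignment, and the lists hold no measure of contact between the site and the gene. In RefSeq order the coding genes on either side of SPRY2 are NDFIP2 and SLITRK1.

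Across the set, 8 of 10 CHIR+SB peaks and 7 of 9 CHIR peaks lay within 50 kb of the TSS, against 52.1% and 65.7% of all peaks in those lists. The median distance was 1.85 kb in CHIR+SB and 2.02 kb in CHIR, against 45.9 and 15.6 kb over all peaks. In each list 5 of the peaks were upstream, 2 were beyond the gene end, and the others (3 in CHIR+SB, 2 in CHIR) were within the gene. Over all peaks, 38.5% were upstream, 27.9% beyond the gene end and 33.6% within the gene in CHIR+SB, and 42.9%, 23.9% and 33.1% in CHIR. For none of the 19 peaks did the same list hold a peak of another gene within 100 kb. This held for 91.5% of all CHIR+SB peaks and 89.6% of all CHIR peaks as well.

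Next, the signal in CHIR+SB was set against that in CHIR, to ask whether blocking the activin/Nodal receptors went with a different β-catenin signal at these genes. Both lists shared 8 sites (overlap of at least 1 bp), at FGF8, FGF17, ETV5 and SPRY4 and at both sites of DUSP6 and of SPRY2. As a share of each whole list, 36.6% of peaks in CHIR+SB and 63.3% of those in CHIR met a peak of the other list. At the 8 sites the ratio of CHIR+SB to CHIR signal had a median of 0.721 and a range of 0.536 to 1.34. The ratio was under 1 at 6 sites and over 1 at 2. At all 642 sites where 1 peak of each list overlapped, the median was 1.00 and 50% of ratios were under 1.

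At 1 of the 8 sites the interval of the ratio excluded 1, at ETV5, where CHIR+SB had 0.536 times the CHIR signal (0.276 to 0.989). Among all shared sites the interval lay wholly below 1 at 4.21% and wholly above 1 at 6.7%. The ratio was 0.661 (0.385 to 1.10) at FGF17 and 0.944 (0.571 to 1.54) at FGF8. It was 0.709 (0.356 to 1.35) at SPRY4, and 0.651 (0.337 to 1.20) at the nearer and 1.21 (0.623 to 2.32) at the farther SPRY2 site. At DUSP6 the ratio was 1.34 (0.718 to 2.50) within the gene and 0.732 (0.366 to 1.40) upstream. With 15 to 29 reads per CHIR+SB peak, changes of less than about the width of these intervals were not detectable at this depth.

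**Figure D3:**
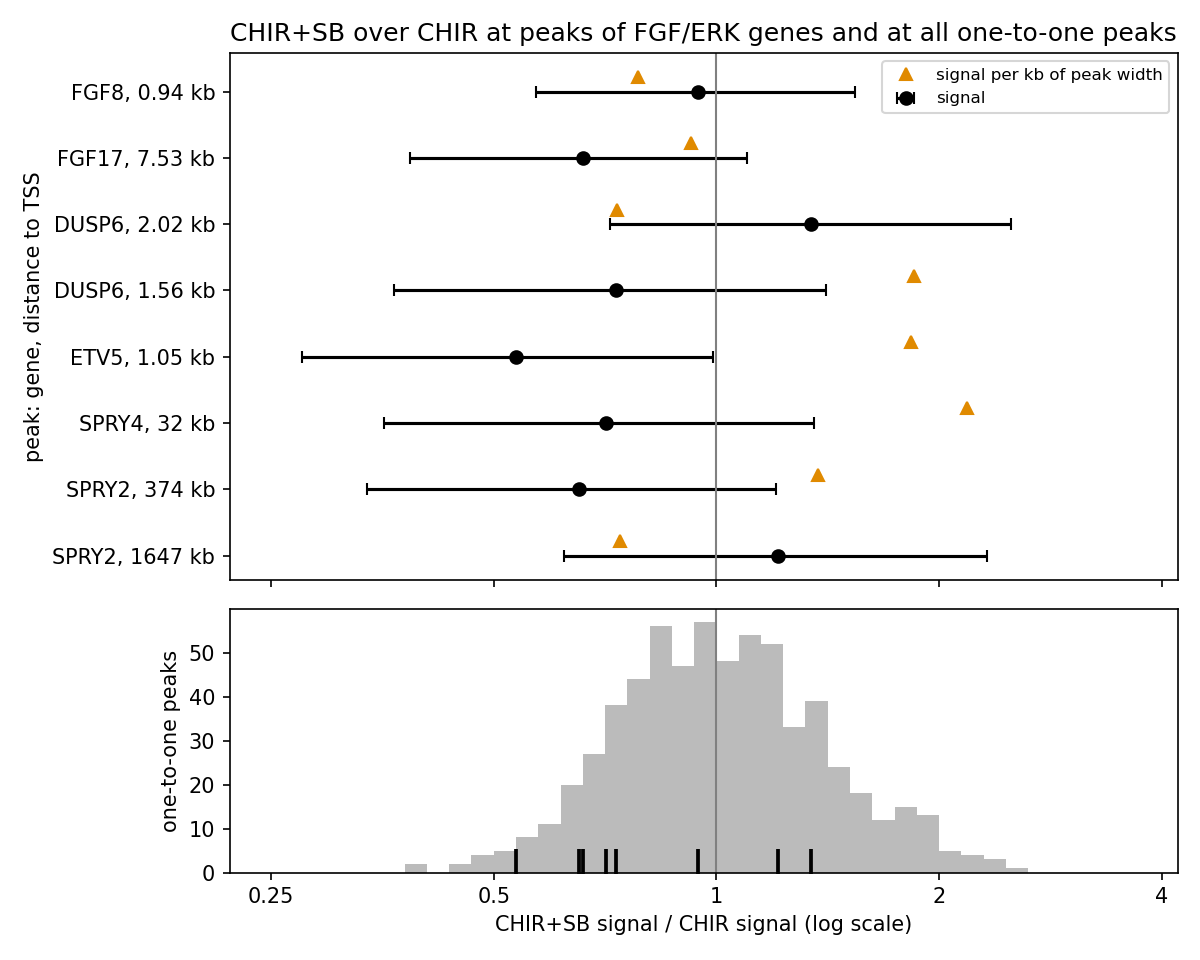
Ratio of CHIR+SB to CHIR signal (x axis, log scale) at the 8 shared sites of these genes, with exact 95% counting intervals, and beside each the ratio per kb of peak width (triangles). The lower panel is the histogram over 642 shared sites, with the 8 sites as black ticks; the ETV5 interval ends at 0.989, and its triangle lies at 1.83.

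Peak width moved in the same direction as the signal at these sites, except at FGF8, where the CHIR+SB peak was wider and its signal slightly lower. How often width and signal moved together over all shared sites was not counted. The CHIR+SB peak was narrower than the CHIR peak at 5 of the 8 sites, against 48.4% of all shared sites, and the median width ratio was 0.595, against 1.02 over all shared sites. It was 0.292 at ETV5, 0.325 at SPRY4 and 0.396 at the upstream DUSP6 site, and 1.83 at the inner DUSP6 site. Per kb of peak width, the order turned at ETV5, where CHIR+SB had 1.83 times the CHIR value, and the median over the 8 sites was 1.15. With signal per kb, 4 sites were under 1 and 4 over. Over all shared sites, 308 of 642 were under 1 per kb and the median was 1.01. A narrower boundary holds fewer reads, and the part that the boundaries had in the ratios was not tested.

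Raw IgG reads differed between the lists too, and so did the depth of the IgG libraries (1.75 times that of RPMI in CHIR+SB, 0.976 times in CHIR). At the peaks of these genes the IgG library had 6 to 9 reads (median 8) in CHIR+SB and 1 to 8 reads (median 3) in CHIR. Over all peaks the median was 6 IgG reads in CHIR+SB and 4 in CHIR. In normalized form, the IgG signal was higher in CHIR+SB at 4 of the 8 shared sites, against 62.5% of all shared sites. The authors' deposited ratio of normalized β-catenin to normalized IgG signal had a median of 3.30 in CHIR+SB (range 2.68 to 5.18) and of 4.53 in CHIR (range 3.06 to 13.1). Over all peaks the medians of that ratio were 4.29 and 4.66. At 7 of the 8 shared sites the ratio was lower in CHIR+SB, as it was at 63.4% of all shared sites. The exception was FGF8, with 5.18 (2.31 to 13.1) in CHIR+SB and 3.06 (1.43 to 7.52) in CHIR. At the inner DUSP6 site the ratio was 3.49 (1.55 to 8.62) in CHIR+SB and 13.1 (2.13 to 537) in CHIR, where it rests on 1 IgG read. The intervals of the 2 media overlapped at both sites. Each medium has its own IgG library, so the share of the IgG library in these ratios cannot be told apart from that of the medium.

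**Figure D4:**
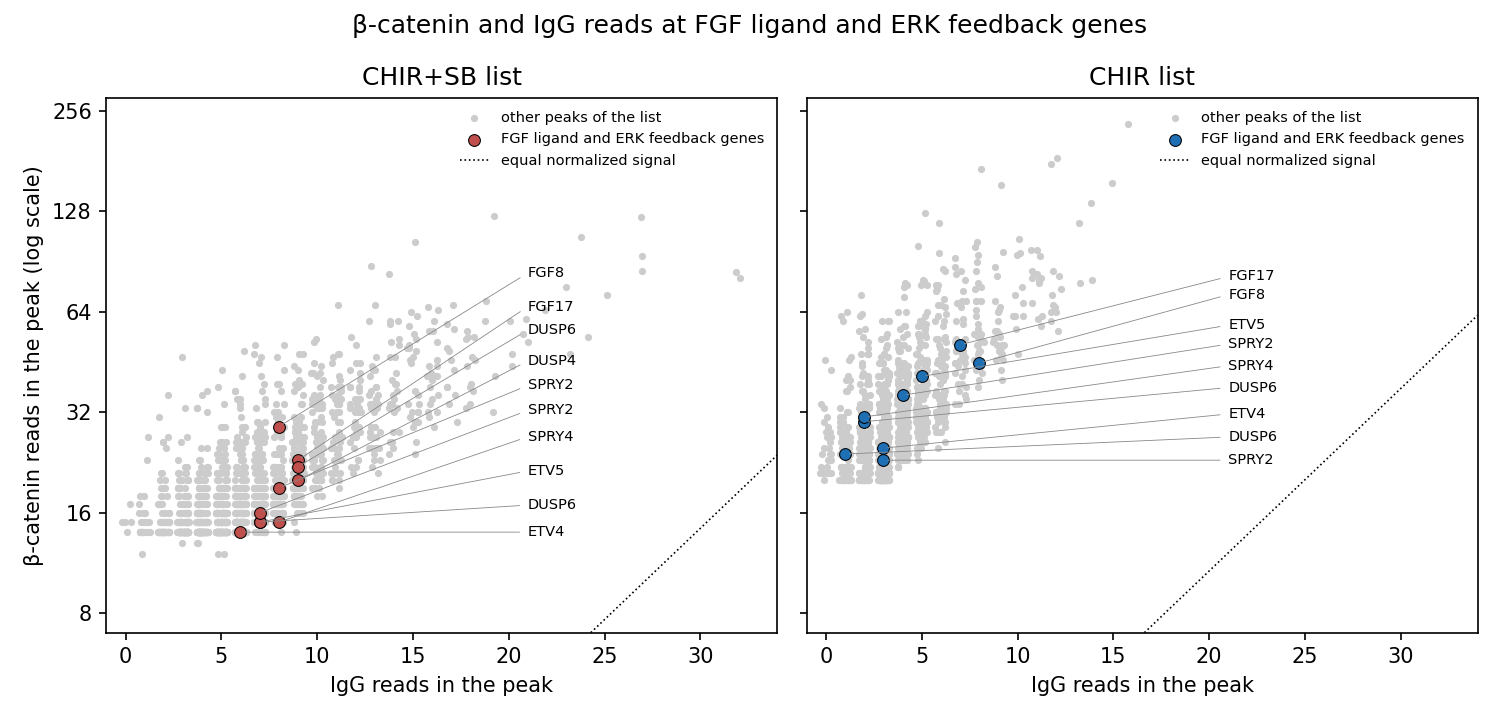
β-catenin reads (y axis, log scale) against IgG reads (x axis, shifted at random by less than a read for the grey points) for the peaks of the CHIR+SB list (left) and the CHIR list (right), with the peaks of the 9 genes in colour and a dotted line where both normalized signals would be equal. In CHIR+SB the coloured points lie at 6 to 9 IgG reads and 14 to 29 β-catenin reads, and in CHIR at 1 to 8 IgG reads and 23 to 51 β-catenin reads.

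Within their lists these were peaks of middling height. The median signal of the 10 CHIR+SB peaks was 9.84, against 9.56 over all CHIR+SB peaks, and that of the 9 CHIR peaks was 11.9, the same as over all CHIR peaks. None of the CHIR+SB peaks and 2 of the CHIR peaks, those of FGF17 and FGF8, ranked among the 260 highest of their list. That cut is stricter among 1813 CHIR+SB peaks than among 1053 CHIR peaks. FGF8 ranked 279 in CHIR+SB with 83.2% of peaks lower in reads, and 238 in CHIR with 75.5% lower. FGF17 had the highest CHIR signal of the set, and the genes whose highest peaks were most like it were sought among 490 genes with a peak in CHIR+SB and CHIR and none in RPMI. By Euclidean distance of log2 signal over these 2 lists, the nearest were DACT1 (13.5 in CHIR+SB, 19.6 in CHIR), GRWD1 (12.4 in CHIR+SB, 19.6 in CHIR) and LOC145820 (13.5 in CHIR+SB, 19.97 in CHIR).

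Of 66 other genes of the FGF and ERK pathway, 12 had a peak in CHIR+SB, 10 in CHIR and 1 in RPMI, at any distance to the TSS. Of these genes, 7 had a peak in both CHIR+SB and CHIR. As shares, genes with a peak were 18.2% in CHIR+SB, 15.2% in CHIR and 1.52% in RPMI, against 6.25%, 3.8% and 1.14% of protein-coding genes. The 66 genes too were chosen with earlier results of the same lists known, so their higher share describes the choice as well. All peaks of FGF18, FGF1, PTPN11, GRB2, SPRED2 and ETV1 lay more than 50 kb from the TSS. The 66 genes were not counted again within 50 kb. In any of the 3 lists, 15 of the 66 had a peak, as did 7.61% of protein-coding genes. By role, these were 5 of 19 further FGF ligands, 2 of 7 receptors and co-receptors and 4 of 17 cascade genes. The others were 3 of 13 further inhibitors of the pathway and 1 of 10 transcription factors and immediate early targets. The 1 gene with an RPMI peak was MAP2K2, which encodes the ERK kinase MEK2. Its promoter peak had 53 reads in CHIR+SB, 101 in CHIR and 47 in RPMI, with 18, 5 and 9 IgG reads. The normalized signals were 29.8 in CHIR+SB, 38.8 in CHIR and 30.1 in RPMI, so that the MAP2K2 promoter had a peak with and without inhibitors.

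Among the other ligands, FGF18 had the highest CHIR signal, with a peak 204 kb beyond its TSS. It had 48 reads and 9 IgG reads in CHIR+SB and 83 reads and 7 IgG reads in CHIR, a signal ratio of 0.847 (0.581 to 1.22). FGF12 had 2 peaks in CHIR+SB alone, of 17 and 14 reads, and FGF1 had 1 in CHIR alone, of 24 reads. The receptor gene FGFR1 had a peak within the gene, 27.3 kb from the TSS in CHIR+SB and 27.5 kb in CHIR. It held 60 reads and 20 IgG reads in CHIR+SB and 41 reads and 4 IgG reads in CHIR. The signal ratio was 2.14 (1.42 to 3.27), and the width ratio of the peaks was 2.60. Per kb of peak width the order turned at FGFR1, where CHIR+SB had 0.826 times the CHIR value. The ratio of normalized β-catenin to normalized IgG signal was also lower in CHIR+SB, 4.29 (2.55 to 7.51) against 5.58 (2.02 to 21.4) in CHIR, with overlapping intervals. FGFR2 had peaks at separate sites, 0.275 kb upstream in CHIR+SB with 19 reads and 13.4 kb within the gene in CHIR with 20 reads.

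Of the other inhibitors of the pathway, IL17RD, which encodes the membrane protein SEF, had a shared peak about 6 kb inside the gene. It had 23 reads and 4 IgG reads in CHIR+SB and 35 reads and 3 IgG reads in CHIR (signal ratio 0.963, 0.543 to 1.68; 1.16 per kb of peak width). A further IL17RD peak of 24 reads and 9 IgG reads was in the CHIR+SB list alone. RASA1, a GTPase-activating protein of RAS, had 14 reads in CHIR+SB and 31 in CHIR at a shared site 4.52 kb upstream (ratio 0.662, 0.325 to 1.28; 2.45 per kb of peak width). SPRED2 and the ETS gene ETV1 each had a distant CHIR+SB peak of 14 reads. In the cascade, the adaptor gene GRB2 had 21 reads in CHIR+SB and 33 in CHIR (ratio 0.932, 0.513 to 1.66). These peaks were within the gene, 60.0 kb from the TSS in CHIR+SB and 59.9 kb in CHIR. BRAF had 25 reads in CHIR+SB alone, within the gene 11.6 kb from the TSS. PTPN11 had 38 reads in CHIR alone, at a site 159 kb from the TSS beyond the gene end.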

How the data were processed

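Bowtie is the aligner, and mm9 and hg19 are the builds, that the submitters' processing notes name. For the peak caller and its thresholds, nothing is given in the sources used here. Peaks were deposited as 1 list per β-catenin library, with whole-read counts of the β-catenin and IgG libraries in each peak, normalized signal (the count times 1 factor per library) and the ratio of β-catenin to IgG, per the file headers. Decimal commas were read as points. Positions are printed as deposited. The doses are not printed, because the labels' unit is in doubt. Python 3.11.15, pandas 2.3.3 and scipy 1.17.1 were used. Ratios of signals carry exact 95% intervals from the binomial share of the 2 counts, and single signals exact Poisson intervals; the interval code was tested on simulated data. Pooled ChIPs gave 1 library per medium, so no test between media was run. Gene names matched RefSeq (GRCh38.p14) for 99.3% of names in CHIR+SB, 99.1% in CHIR and 100% in RPMI. The genes and pathway lists, and the rule naming every gene of them with a peak, were chosen with earlier results of these data known. The ETS core was added after the peaks were seen.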

Additional observations from a re-analysis of the deposited data

How the results depend on the processing

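Each medium had 1 library, so no library could be left out, and no paired analysis was possible because the labels carry no replicate numbers. Within 50 or 10 kb of the TSS, the counts of genes and peaks stayed within 1.5 times of those reported. When every list was held to a signal of at least 9.61, the RPMI minimum, 5 genes and 5 peaks remained in CHIR+SB, and 6 and 6 in CHIR. Among the 260 highest peaks of each list, 0 genes and 0 peaks remained in CHIR+SB (of 1813 peaks in the list), and 2 and 2 in CHIR (of 1053). RPMI stayed at 0 under every one of these limits. The 8 shared sites became 3 when the overlap had to cover 50% of each peak, and stayed 8 with the other 2 definitions tried. The median CHIR+SB to CHIR ratio of 0.721 turned to 1.15 per kb of peak width, was 0.492 with raw reads, which leave out the difference in depth, and 0.605 after IgG signal was subtracted. Over all 642 shared sites those medians were 1.01, 0.682 and 0.954, in the same order. The ETV5 ratio turned to 1.83 per kb. From raw counts, which again leave out depth, the median of β-catenin over IgG was 2.31 in CHIR+SB and 8.33 in CHIR. The ratio of CHIR to RPMI had no value under any setting. Depth limits all of these: 5 of 10 CHIR+SB peaks had 14 to 16 reads, and 45.1% of all CHIR+SB peaks had fewer than 17.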

Other observations

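SPRY4 and the ligand gene FGF1 are neighbours in RefSeq order on chromosome 5. The FGF1 peak of the CHIR list, with 24 reads and 1 IgG read, lay 146 kb from the FGF1 TSS beyond the gene end, and the SPRY4 peak of the same list lay upstream of SPRY4. The peaks were 195 kb apart on the stretch between these genes, and the CHIR+SB list held the SPRY4 peak and no FGF1 peak. The FGFR2 peaks of CHIR+SB and CHIR were 16.4 kb apart, and the ETV4 peaks 14.7 kb apart, so for these genes a peak in each list did not mean a shared site.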
